A study of Mus musculus with 4 samples.

Results

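Matricellular proteins are secreted into the space around cells, where they act on adhesion, on growth factors and on matrix assembly more than as structural fibres. This account covers 10 genes of that kind or acting beside it in mouse hair follicle stem cells (HF-SCs): Thbs1, Thbs2, Thbs3, Fn1, Tnc, Postn, Sparc, Spp1, Nppb and Adamtsl3. The genes were chosen by symbol from a list drawn up with earlier results of these data in view, and were kept where the mean normalized count in the deposited table was above 0. All 10 of the 10 listed genes passed, of 17044 genes above 0 among the 24421 in the table. That mean is the value the rule used, so the levels below are a description and carry no test.

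RNA-seq was done on HF-SCs from back skin of mice at postnatal day 44, with 2 control and 2 miR-205 induced libraries. In the induced mice a pTRE2-miR-205 transgene was driven by Krt14-rtTA, which acts in keratin-14 expressing cells of the skin, and doxycycline chow was given from postnatal day 42. Mice of both groups carried Krt14-H2b-GFP and are labelled C57BL/6, while the transgene was made in FVB mice. The labels call the controls untreated, whereas the extraction protocol has both groups fed doxycycline. Viable cells were sorted for high H2BGFP, α6 and CD34 and for absence of Sca1, and the sources used here do not say whether a library pooled animals.

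The deposited table holds 1 mean over all 4 libraries for each gene and the authors' own comparison of the groups, which was not used. The induced and control libraries are therefore not compared here. Each mean is the authors' mean of counts divided by size factors, and it has no SD. For comparison between genes it was divided by the length of the gene's exons, giving a mean per kb.

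Thrombospondins are secreted calcium-binding glycoproteins that bind cell-surface receptors such as CD36, CD47 and integrins, and thrombospondin 1 is known as an activator of latent TGF-β. Tenascin-C, periostin and SPARC modulate adhesion to fibronectin and collagen. In the hair follicle, stem cells rest on a basement membrane, and the matrix around them is part of the niche. miR-205 is a miRNA of stratified epithelia, and a miRNA recognises its targets mainly through its seed, bases 2 to 8.

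The mature miR-205-5p sequence (RefSeq, GRCm38.p6, chr1:193507503-193507524, minus strand) is shown because the transgene expresses this miRNA. Capitals mark the seed.
miR-205-5p: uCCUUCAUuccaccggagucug
The 7-base DNA letters that pair with the seed are ATGAAGG. These letters were in the longest annotated 3′UTR of 0 of the 10 genes, against 10.9% of 15167 genes with a 3′UTR. The 3′UTRs ranged from 227 bases in Nppb to 2104 bases in Thbs1, beside a median of 1014 over all genes. The 6-base match, TGAAGG, which lies within the 7-base one, was also in 0 of 10, against 34.3% of genes. Their absence says only that the letters are not in these annotated windows. By capture of miRNAs ligated to their target mRNAs, the authors list Thbs1 and Fn1 among the mRNAs bound by miR-205.

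After this was seen, coding sequences were searched for the same letters on the sense strand. They were present in 5 of 10 genes, namely Thbs1, Thbs2, Fn1, Tnc and Adamtsl3, against 21.9% of 15396 genes. The coding sequences of these 5 run from 3516 bases in Thbs1 to 7434 bases in Fn1, and the median over all genes is 1377. Longer sequences hold more letters, and the share was not adjusted for length. The 8 places are printed in full, since they are the only matches in the 10 transcripts' coding sequences and 3′UTRs. Positions count from 1 at the first coding base, coordinates are on NCBIM37, and capitals mark the match.
Thbs1 coding position 3380, exon 21 of 22, chr2:117949867-117949873, plus strand: atatcagagtggtgatgtATGAAGGaaa
Thbs2 coding position 3383, exon 21 of 22, chr17:14805854-14805860, minus strand: acatgagagtcttagtgcATGAAGGaaa
Fn1 coding position 428, exon 4 of 46, chr1:71695884-71695890, minus strand: ccattgcaaatcgctgccATGAAGGggg
Fn1 coding position 1418, exon 10 of 46, chr1:71686988-71686994, minus strand: aggagatctgcacaaccaATGAAGGggt
Tnc coding position 1835, exon 2 of 26, chr4:63677891-63677897, minus strand: caggccgctgcatctgcaATGAAGGtta
Tnc coding position 4655, exon 15 of 26, chr4:63643876-63643882, minus strand: gtctgtcctggactgctgATGAAGGgat
Tnc coding position 5071, exon 17 of 26, chr4:63636278-63636284, minus strand: cgcgtcagtgtgattgccATGAAGGgat
Adamtsl3 coding position 4124, exon 24 of 30, chr7:89743971-89743977, plus strand: agagtgcttcactcgaaaATGAAGGaac
The matches of the paralogs Thbs1 and Thbs2 lay at the same place, each 130 bases before the end of the coding sequence, and 21 of the 28 bases shown were identical. In Thbs1, Thbs2 and Adamtsl3 the match was followed by an A, the base that many miRNA target sites carry opposite the first base of the miRNA.

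Thbs1 was among the most abundant transcripts of these cells. Its mean normalized count was 128249, the third highest of 17044 genes, after the ribosomal RNA precursor Rn45s at 478853 and the basal keratin Krt5 at 146090. The bulge keratin Krt15 followed at 119883. Thbs1 took 0.98% of all normalized counts. Per kb of exon its mean was 21117.8, fifteenth of the 16228 genes with a length, and the median gene was at 39.7 per kb. Its neighbours in that order were the transcription factor genes Fosb and Fos and the ribosomal genes Rps12 and Rplp1. They had 23911, 20993, 21708 and 20892 per kb. Per the methods, skin was digested with collagenase and trypsin before the sort. The part of that step in the level of Thbs1 was not tested. The gene lies at chr2:117937612-117952869 on the plus strand of NCBIM37.

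The other thrombospondins stood far lower. Thbs3, which forms pentamers, had a mean of 112 per kb, and Thbs2, which like Thbs1 forms trimers, had 95.01 per kb. Thbs1 was thus 189 times as high as Thbs3 and 222 times as high as Thbs2 on the per kb scale. Thbs2 lies at chr17:14802507-14831269 on the minus strand and Thbs3 at chr3:89019102-89030759 on the plus strand. Thbs4 and Comp, the remaining pentameric members of the family, were at 3.19 and 0.823 per kb. Of the 5 thrombospondins, 3 had a mean normalized count over 50, compared with 60.7% of all genes above 0.

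Periostin and SPARC were also in the upper range. Postn, a fasciclin-domain protein that binds integrins and takes part in collagen assembly, had a mean normalized count of 59078.8 and 7537.5 per kb. Sparc, a collagen-binding calcium-binding glycoprotein, had a mean of 9597.0 and 2850.3 per kb. Postn lies at chr3:54165031-54194961 on the plus strand and Sparc at chr11:55208002-55233582 on the minus strand. Thbs1 and Postn together made up 91.9% of the summed mean normalized counts of the 10 genes. Tgfbi, the fasciclin-domain relative of Postn, was near it at 5600.5 per kb, whereas Stab1 was at 4.33 per kb and Stab2 at a mean of 0. Within the SPARC family Sparc was highest, followed by Smoc2 at 410.5 per kb and Fstl1 at 159 per kb. Lower still were Spock2 at 70.3, Smoc1 at 49.2, Sparcl1 at 30.5, Spock1 at 0.959 and Spock3 at 0.149, all per kb.

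Tenascin-C and fibronectin stood below Sparc per kb, at percentiles of 94.1 and 75.0 among all genes with a length. Tnc, a large hexameric glycoprotein that weakens adhesion to fibronectin, had 611 per kb from a mean normalized count of 4584.4. Fn1, which encodes fibronectin, the ligand of α5β1 integrin, had 140.3 per kb from a mean of 1170.5. Both genes are on the minus strand, Tnc at chr4:63620819-63681760 and Fn1 at chr1:71632094-71699774. Among the other tenascins, Tnxb was at 61.3 per kb, Tnn at 1.68 and Tnr at 0.309.

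Nppb, Spp1 and Adamtsl3 were the lowest. Nppb, the precursor of brain natriuretic peptide, had 77.6 per kb, above the median gene on that scale because its exons span only 0.781 kb. Its mean normalized count was 60.6, below the median of 117. Nppc, which encodes the C-type peptide, was at 641 per kb, and Nppa had a mean of 0. Spp1 (osteopontin), an integrin and CD44 ligand, had 9.65 per kb from a mean of 15.9, the lowest of the 10 means. Adamtsl3, a secreted protein related to the ADAMTS proteases but without their catalytic domain, had 7.62 per kb from a mean of 58.9. All 3 genes are on the plus strand, Nppb at chr4:147359897-147361314, Spp1 at chr5:104864137-104870069 and Adamtsl3 at chr7:89484204-89762960.

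Relatives of these low genes were not all low. Adamtsl4 reached 919 per kb, Papln 163 and Adamtsl5 64.5, while Adamtsl1 was at 5.13 and Adamtsl2 at 0.992 per kb. Thsd4 had a mean of 88.2 and no exon length. Of the 5 genes of the bone glycoprotein family of Spp1, the other 4 (Ibsp, Dmp1, Dspp and Mepe) had a mean of 0. These 4 genes, with Stab2 and Nppa, are the relatives with a mean of 0. They were not among the symbols to which the rule was applied. Spp1 at a mean of 15.9 was the member nearest to the rule's threshold of 0.

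**Figure D1:**
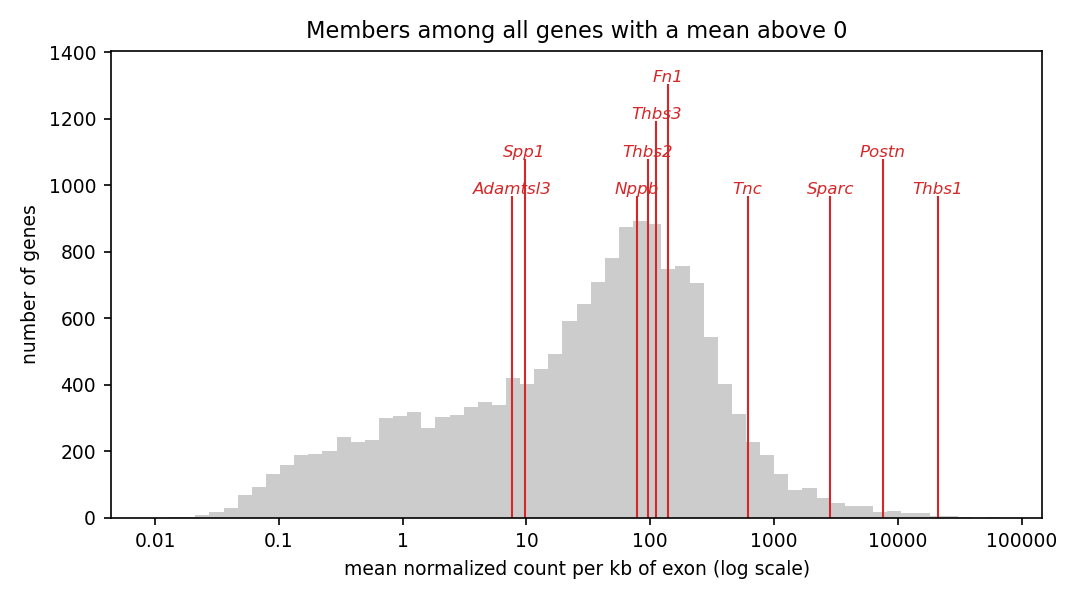
Histogram of all genes with a mean above 0 by mean normalized count per kb of exon (log scale, x axis; number of genes, y axis), with a red line at each of the 10 genes. Thbs1, Postn, Sparc and Tnc lie in the upper tail, at 21117.8, 7537.5, 2850.3 and 611 per kb, and Spp1 and Adamtsl3 lie left of the peak, at 9.65 and 7.62 per kb.

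In order of mean per kb the genes were Thbs1, Postn, Sparc, Tnc, Fn1, Thbs3, Thbs2, Nppb, Spp1 and Adamtsl3. Thbs1 was 2.80 times as high as Postn per kb, Postn 2.64 times as high as Sparc, Sparc 4.67 times as high as Tnc, and Tnc 4.35 times as high as Fn1. The steps from Fn1 down to Nppb were smaller, with Fn1 1.26 times as high as Thbs3, Thbs3 1.17 times as high as Thbs2 and Thbs2 1.22 times as high as Nppb. With all exons as length, the widest step between neighbours followed, with Nppb 8.04 times as high as Spp1, and Spp1 was 1.27 times as high as Adamtsl3. Where shortest protein-coding transcripts set the length, the widest step was instead from Sparc to Tnc, at 14995 against 1565.7 per kb. With shortest protein-coding transcripts in place of all exons, Postn stood above Thbs1, at 90197 against 21930 per kb, Thbs3 above Fn1, at 1237 against 150 per kb, and Adamtsl3 above Nppb and Spp1, at 118 against 77.6 and 44.9 per kb.

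Most genes through which these proteins act were above the minimum mean of 50, and their levels ranged widely. Of 30 receptors and partners, 23 had a mean normalized count over 50, compared with 60.7% of all genes above 0. The median of the list was 165 per kb, beside 39.7 over all genes. The syndecans Sdc4 and Sdc1, heparan sulfate proteoglycans of the cell surface, were the highest with 7230.1 and 2583.8 per kb, followed by the integrin β1 subunit Itgb1 with 1988.7. The thrombospondin receptor Cd36 had a mean of only 37.8, the β3 integrin subunit Itgb3 13.2, and the tenascin and osteopontin receptor subunits Itga8 and Itga9 had 19.7 and 17.9. Other receptors of the same proteins were higher. The thrombospondin receptor Cd47 had a mean of 657, the fibronectin receptor subunit Itga5 756 and the osteopontin receptor Cd44 13051.4. Means under 50 were also found for the natriuretic peptide receptors Npr1 at 24.9 and Npr3 at 14.7, and for Corin, which processes natriuretic peptide precursors, at 2.67. Among the CCN genes, another matricellular family, Cyr61 was at 34757.3 per kb and Ctgf at 3015.7, while Wisp2, Nov, Wisp1 and Wisp3 had means of 7.12, 6.38, 5.25 and 1.01.

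Markers of HF-SCs were present, but the sort itself selected for some of them. Cd34 and the α6 integrin gene Itga6 encode sorted antigens, and the sorted reporter was Krt14-H2b-GFP. All 11 HF-SC markers had a mean over 50, compared with 60.7% of all genes above 0, and their median was 1343.4 per kb. Markers of other skin cells were also present. Those of suprabasal keratinocytes were over 50 in 4 of 4, with a median of 586 per kb and the highest, Krt10, at 3460.6 per kb. In fibroblasts, which can also make most of these matrix proteins, 6 of 8 markers had a mean over 50, with a median of 211 per kb and the highest, Col1a1, at 790 per kb. Postn and Sparc were above every fibroblast marker per kb, and Fn1, Thbs2 and Thbs3 were below the fibroblast median. Endothelial markers were over 50 in 0 of 4 and myeloid markers in 5 of 5, with medians of 4.98 and 155 per kb. A mean over 50 was also found for 1 of 4 dermal papilla, 1 of 4 smooth muscle and pericyte, 3 of 4 melanocyte, 3 of 4 sebaceous and 2 of 3 Schwann cell markers. The part of other cell types in the members' levels was not tested.

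Because the means carry 15 significant digits, the counted reads of each of the 4 libraries could be recovered for 6 of the 10 genes, each with exactly 1 set of reads that gives its mean, an approach added after the digits were seen. The libraries are numbered 1 to 4 from the largest to the smallest size factor, 1.24 to 0.716, and which of them were induced is not given in this way, so they are described singly. Intervals below are exact Poisson 95% intervals and cover counting error only.

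Fn1 was the most even of the 6. Its normalized counts were 1085 in library 1, 1294 in library 2, 1161 in library 3 and 1142 in library 4. The highest was 1.19 times the lowest. Thbs3 had 469, 594, 482 and 607 in libraries 1 to 4, and its highest was 1.295 times its lowest. Thbs2 had 635, 542, 646 and 430, and its highest was 1.5 times its lowest. Thbs2 was lowest in library 4 and highest in library 3. Reads were recovered for 33 of 40 listed markers of other cell types. Of these 33, 25 were lowest in library 4 and 18 were highest in library 3. The same shares over all genes were not computed. Listed genes that are not markers went both ways, with Bmp1 and Tgfb1 lowest in library 4 and Ltbp1 and Itgb8 highest there. Of the fibroblast markers, Lum and Mfap4 were also lowest in library 4 and highest in library 3. Dcn was highest in library 1, with 821, 584, 799 and 445 normalized counts in libraries 1 to 4. Dpt was lowest in library 4 but highest in library 2, and Pdgfra was lowest in library 2. The part of those cells in the values of Thbs2 was not tested. Per kb, the libraries ran from 130 to 155 for Fn1, from 97.2 to 126 for Thbs3 and from 72.5 to 109 for Thbs2. With all exons as length Fn1 thus lay above Thbs3 without overlap, while Thbs3 and Thbs2 overlapped. With the longest transcript Fn1 and Thbs3 overlapped, at 131 to 156 and 116 to 151 per kb, and with the shortest protein-coding transcript Thbs3 was the higher. The order of Fn1 and Thbs3 therefore depends on the length used.

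Nppb was the most uneven. Its normalized counts were 127 (interval 108 to 148) in library 1, 19.5 (12.4 to 29.3) in library 2, 33.1 (22.7 to 46.7) in library 3 and 62.8 (45.8 to 84.1) in library 4. The highest was 6.51 times the lowest, from 157 reads against 23. Per kb Nppb ran from 25.0 to 163, across the whole range of Thbs2, Thbs3 and Fn1, so its place in the order is not separated from theirs. Adamtsl3 had 104 (86.4 to 123), 20.4 (13.045 to 30.3), 27.9 (18.4 to 40.7) and 83.8 (63.9 to 108) in libraries 1 to 4. Its highest was 5.08 times its lowest.

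Spp1 rested on 69 reads in all. Its normalized counts were 21.8 (14.4 to 31.8), 12.7 (7.12 to 21.0), 24.8 (15.9 to 37.0) and 4.19 (0.864 to 12.2), the last from 3 reads in library 4. Like Spp1, 25 of those 33 markers of other cell types were lowest in library 4, and 1 was highest there. The share of all genes lowest in library 4 was not computed. Of the endothelial markers, the cadherin Cdh5 had 45.3, 34.8, 35.2 and 5.58 normalized counts in libraries 1 to 4. Pecam1 and Kdr were also lowest in library 4. Emcn was lowest in library 1, at 1.62, as were the myeloid markers Lyz2 and Ptprc. The part of those cells in the value of Spp1 was not tested. Spp1 and Adamtsl3 overlapped per kb, at 2.54 to 15.1 and 2.63 to 13.4. The means of Thbs1, Postn, Sparc and Tnc were too high for reads to be recovered, so the spread of these 4 genes is not known.

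**Figure D2:**
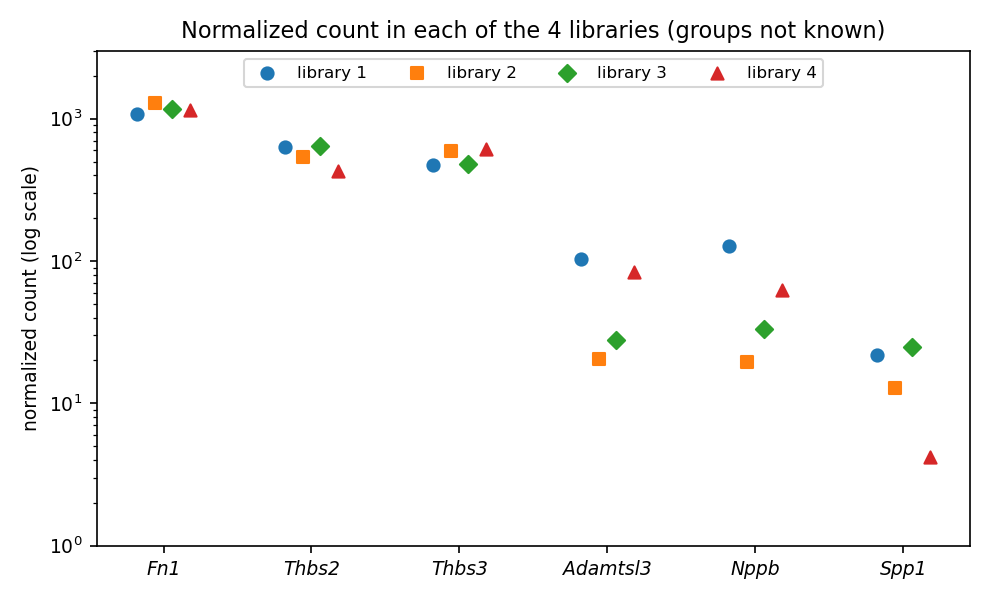
Normalized count (log scale, y axis) of 6 genes in each of the 4 libraries, numbered by size factor and not assigned to groups. Fn1, Thbs2 and Thbs3 stay within 1.5 times between libraries, whereas Nppb, Adamtsl3 and Spp1 spread over 6.51, 5.08 and 5.93 times.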

How the data were processed

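HF-SCs were sorted from 2 control and 2 miR-205 induced samples, and total RNA was sequenced as 150-nt paired-end reads. Per the methods, the authors aligned reads with HISAT2 2.1.0, used SAMtools 1.3.1, obtained gene counts from HTSeq and tested induced against control libraries in DESeq2. The labels name mm10, the annotation is not given in the sources used here, and the methods name a genome in terms of both NCBI37 and mm10. The deposited mean normalized count is a signal, which the authors averaged over the 4 libraries once each count was divided by its library's size factor. The other columns hold the authors' log2 fold change, its standard error, the Wald statistic, the p-value and the adjusted p-value, and none was used. The table has 0 columns with values of single samples, so no comparison between groups, SD or test was made.

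Exon lengths, places, 3′UTRs and coding sequences were taken from GENCODE vM1 on NCBIM37, and 16228 of 17044 genes had a length (15233 by symbol, 995 by synonym). With a changed annotation, lengths can differ from those behind the counts. Analyses were run with scipy 1.17.1, pandas 2.3.3, matplotlib 3.10.9 and numpy 2.4.6 in Python 3.11.15. The value of 1 read in each library was read from genes with 1 read in 1 library. Sets of whole reads were then sought that give a mean to about its 15 digits, with a small allowance for rounding in the last. A gene was used where exactly 1 set did. This held for all 8171 genes with a mean under 100 and for 82 of 84 listed genes tried. The other 2, Foxc1 and Itgb5, were among the 22 listed genes with a mean of 500 to 1300, had 2 sets each and were not used. Both were near the top of that range, at means of 1042.2 and 1159.1. Fn1 lies beside them at 1170.5, as does Smoc2 at 1176.9, and each had 1 set. Thbs2 and Thbs3 lie lower in the range, at 563 and 538, with 1 set each. For Fn1 the recovery thus rests on a range of means where other listed genes were ambiguous. Total reads per library are not known, and the means summed to 13085835 normalized counts.

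The members and lists were chosen with earlier results of these data known. Genes named are the 10 members, the other genes of their families and, of the partner and CCN lists, those with the 3 highest means per kb or a mean under 50. Cd47, Itga5 and Cd44 are named as well, as receptors of members, and some other listed genes are named for their library values. Alternatives were the genes ranked against, the exon length, the minimum mean, and the length and place of the seed match.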

Additional observations from a re-analysis of the deposited data

How the results depend on the processing

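Over genes with a mean over 50 in place of all above 0, the percentile of the mean fell from 41.6 to 3.72 for Nppb, from 41.2 to 3.08 for Adamtsl3 and from 76.6 to 61.5 for Thbs2, and Spp1 was not among them. With the longest transcript as length, all 10 genes kept their order of means per kb, but the library values of Fn1 and Thbs3 overlapped. With the shortest protein-coding transcript, Postn (90197 per kb) stood above Thbs1 (21930), Thbs3 (1237) above Fn1 (150), and Adamtsl3 (118) above Nppb (77.6) and Spp1 (44.9). Of 72 family and partner genes, 46 had a mean over 50, 55 over 10 and 36 over 200. The 72 include Ibsp, Dmp1, Dspp, Mepe, Stab2 and Nppa, which had a mean of 0. Of all 24421 genes in the table, those at 0 included, 10342 had a mean over 50, which is 60.7% of the genes above 0. The shares of all genes over 10 and over 200 were not computed. Seed letters were in 0 of 10 3′UTRs with 6 bases or with the shortest 3′UTR, and in 5 of 10 coding sequences, which was added after seeing the data. No paired analysis was possible because the table has no value assigned to a sample, and for the same reason no replicate could be left out in turn.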

Other observations

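Nppb and Adamtsl3, both secreted products at low levels, had their higher values in the same pair of libraries. In libraries 1 and 4 Nppb had 127 and 62.8 normalized counts and Adamtsl3 had 104 and 83.8, whereas in libraries 2 and 3 Nppb had 19.5 and 33.1 and Adamtsl3 had 20.4 and 27.9. For Adamtsl3 the counting intervals of the higher pair of libraries did not overlap those of the lower pair, and for Nppb the interval of library 4 (45.8 to 84.1) touched that of library 3 (22.7 to 46.7). The same division, with libraries 1 and 4 both above libraries 2 and 3, was found in 11.8% of the 1469 genes with a mean of 50 to 100, and the opposite one in 32.3%, so it is not particular to these genes. Among the listed genes it was found in 11 of 82, such as Papln at 1118 and 1065 against 601 and 888. These shares were computed after the values had been seen. The libraries carry no group here, and no test was made. Fn1 had its lower values in libraries 1 and 4 (1085 and 1142, against 1294 and 1161), with the interval of library 3 (1094 to 1231) overlapping those of libraries 1 (1028 to 1145) and 4 (1065 to 1223). Thbs2, Thbs3 and Spp1 did not divide the libraries between these pairs, and library 4 was the lowest for Thbs2 at 430 and the highest for Thbs3 at 607.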
